A study of Caenorhabditis elegans with 4 samples.

Results

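The regions described are the COH-3 peaks on chromosome III of Caenorhabditis elegans, taken as every row of the series-wide peak list that lies on III. There were 1542 such peaks among 7498 in the whole list, of which 3 were mitochondrial. Chromatin immunoprecipitation and sequencing (ChIP-seq) of COH-3 was carried out with an affinity-purified rabbit polyclonal antibody on whole adult hermaphrodites of the strain fem-2(b245), kept at 20 °C. All 4 libraries, 2 of ChIP DNA and 2 of input DNA, came from this genotype, fem-2(b245)III, so no wild type or coh-3 mutant was compared and the mutated gene itself lies on III. The stage label gives young adults that contain a germ line, whereas the growth protocol describes gravid animals. Peak lists of ChIP replicates 1 and 2 were analysed together with the series-wide list, and the input libraries were not analysed here. The labels number the replicates without saying whether they came from separate cultures, so the spread between them may be technical.

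Cohesin is a ring-shaped complex that holds sister chromatids together, closed by a subunit called the kleisin. Meiotic cells of C. elegans use the kleisins REC-8, COH-3 and COH-4 in place of the mitotic one, and these complexes form part of the axis along which homologous chromosomes pair and recombine. Autosomes of this animal have no localized centromere. They have a gene-dense middle where crossovers are rare and arms that are richer in repeats and recombine more.

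Chromosome III carried 288 peaks in replicate 1, 684 in replicate 2 and 1542 in the series-wide list. The 2 libraries thus differed widely, with a mean of 486 ± 280 peaks (SD, n = 2). The peaks covered 165.1 kb (1.20% of the chromosome) in replicate 1, 577.8 kb (4.19%) in replicate 2 and 733.8 kb (5.32%) in the series-wide list. Read depth is unknown, so the longer list of replicate 2 cannot be told apart from deeper sequencing. The length of III was set to 13783731 bp, the highest end coordinate of its peaks, and all positions are on WormBase WS220 as in the files.

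The density of peaks on III was set against each of the other 5 nuclear chromosomes by itself. Chromosome III had the highest density in both libraries, with 20.89 peaks for each Mb in replicate 1 and 49.62 in replicate 2. Only V and X were exceeded beyond counting error in both. On V the densities were 15.29 and 25.28 peaks per Mb, which put III higher by 0.45 on the log2 scale in replicate 1 (95% exact interval 0.22 to 0.68) and by 0.97 in replicate 2 (0.81 to 1.14). Exact binomial tests, two-sided and adjusted over the 10 tests of 5 chromosomes in both replicates, gave p = 0.000269 and p = 6.32e-31. On X the densities were 16.82 and 14.79 peaks per Mb. III exceeded X by a log2 ratio of 0.31 (0.07 to 0.55) in replicate 1 and 1.75 (1.54 to 1.96) in replicate 2. The adjusted p of these exact binomial tests was 0.0145 and 1.63e-69.

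Chromosome I was nearest to III in replicate 2 but not in replicate 1, where II (19.96 peaks per Mb) and IV (18.92) were nearer. Its density was 17.91 peaks per Mb in the first library and 44.85 in the second. The log2 ratio of III to I was 0.22 (95% exact interval -0.02 to 0.47) in replicate 1 and 0.15 (-0.01 to 0.30) in replicate 2, and neither library passed (exact binomial tests, adjusted p = 0.0938 and 0.0927). For II and IV only replicate 2 passed. The log2 ratio of III to II was 0.07 (-0.17 to 0.30) in replicate 1 and 0.51 (0.34 to 0.67) in replicate 2 (exact binomial tests, adjusted p = 0.593 and 2.99e-09). The log2 ratio of III to IV was 0.14 (-0.09 to 0.38) in replicate 1 and 0.42 (0.26 to 0.58) in replicate 2 (exact binomial tests, adjusted p = 0.25 and 2.78e-07).

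Peaks were unevenly spread along the chromosomes, which the exact binomial test does not allow for. A quasi-Poisson model of peak numbers in 1 Mb bins, which does, gave a variance of 1.92 to 3.83 times the Poisson value. Under it replicate 2 still passed for V, at a log2 ratio of 0.97 ± 0.16 (SE of the model over 35 bins), and for X, at 1.75 ± 0.20 (SE, 32 bins). For II and IV replicate 2 passed as well, at 0.51 ± 0.14 (SE, 30 bins) and 0.42 ± 0.15 (SE, 32 bins). Replicate 1 no longer passed, at 0.45 ± 0.20 for V and 0.31 ± 0.17 for X. The calls of III over V and X thus rest on replicate 2 once unevenness is allowed for. Both calls were also lost in the better-scoring 50% of each list, where the mean log2 ratios of the replicates were 0.51 and 0.78, and that over X when peaks closer than 500 bp were merged (0.90).

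**Figure D1:**
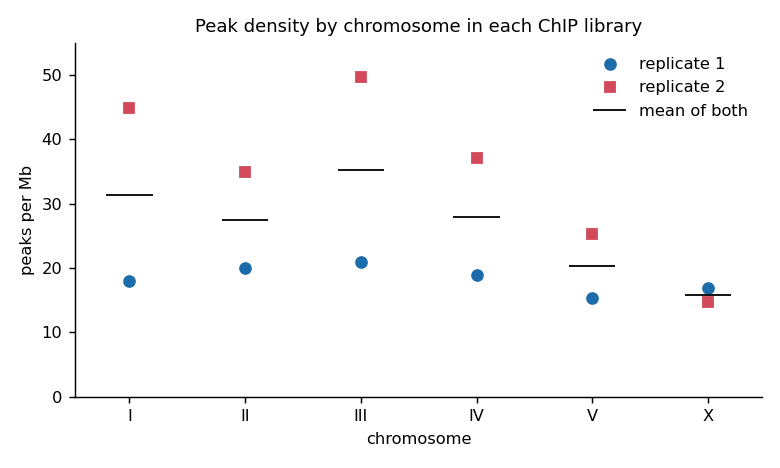
Peaks per Mb on each nuclear chromosome in the lists of replicate 1 (blue circles) and replicate 2 (red squares), with black bars for the mean of both. Chromosome III has the highest value in both libraries, at 20.89 and 49.62 peaks per Mb, with II close to it in replicate 1 and I close to it in replicate 2.

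The highest-scoring peaks of the series-wide list lay on other chromosomes. The score is the authors' own value for each peak, on a scale that is not named, and ranks peaks only within its list. III held 20.57% of all nuclear series-wide peaks, and 22.85%, 20.91%, 20.76% and 17.79% of those in the score quartiles from the lowest to the highest. Of the 100 highest-scoring nuclear peaks 10 lay on III, of the top 50 there were 3, and of the top 10 none. The best peak of III scored 130.92 and ranked 29th of 7495, while the maximum of the other chromosomes ran from 168.59 to 186.41. In replicate 1 III held 15.89% of the nuclear peaks, and 20.09%, 15.89%, 12.36% and 15.23% of the quartiles from the lowest to the highest. In replicate 2 it held 20.53% of the peaks and 19.81%, 22.60%, 21.70% and 18.01% of the quartiles, so there the middle quartiles held the larger shares. The highest score in replicate 2 lay on III, at 3233.06, against maxima of 3107.07 to 3227.04 on the other chromosomes. These maxima lie just above 3100, a value shared as a tie by 18 peaks of III and 11 to 29 on each other chromosome. The single highest score is therefore not read as a difference between chromosomes. With ties, the top 10 of that list came to 126 peaks, of which 19 (15.08%) lay on III. In replicate 1 the top 10 came to 34 peaks, of which 3 (8.82%) lay on III. These shares were not tested. The median score of III in the series-wide list, 5.995, lay between the 5.88 of chromosome I and the 7.98 of X.

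The widths of the peaks on III were like those elsewhere. Their median was 289 bp in the series-wide list (quartiles 200 and 482.75 bp), against 282 to 290 bp on the other chromosomes. In the replicate lists the medians on III were 356.5 bp and 531 bp, with ranges over the other chromosomes of 366 to 409 bp and 507 to 544.5 bp. Within III, wider peaks had higher scores, with a Spearman correlation of 0.665 across the 1542 peaks. This describes a single list, in which a wider region also has more room for a high value. The median width was 196 bp in the lowest score quartile of III and 623 bp in the highest. Peaks of 1200 bp or more numbered 105 on III, or 6.81% of its peaks against 7.07% over the nuclear list, and held 31.98% of the bases covered on III.

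Along the chromosome, the densest megabase was the 8th, from 7 to 8 Mb, in replicate 2 and in the series-wide list. The series-wide list had 217 peaks there and between 74 and 166 in each of the other 13 bins, the last of which is 0.7837 Mb long. Replicate 2 had 91 peaks there and between 31 and 63 in the other bins. Replicate 1 did not single it out, with 28 peaks in that bin against 31 in the bin from 8 to 9 Mb and 30 in the first megabase. The second-densest bin of the series-wide list, from 4 to 5 Mb, held 166 peaks, with 27 in replicate 1 and 58 in replicate 2.

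The sparse stretches agreed only in part between the lists. The bin from 2 to 3 Mb had the fewest peaks in both libraries, with 6 in replicate 1 and 31 in replicate 2. The series-wide list was lowest in the first and second bins, with 74 peaks in each. Replicate 1 had 10 peaks from 1 to 2 Mb and only 15 and 14 from 11 to 13 Mb. Replicate 2 had 39 peaks from 1 to 2 Mb, and its 63 peaks from 11 to 12 Mb were second only to the 8th bin. The ratio of replicate 2 to replicate 1 peaks consequently ran from 1.23 in the first megabase to 5.17 in the third. Over the 14 bins the densities of the replicates had a Pearson correlation of 0.278 and a Spearman correlation of 0.217, and of 0.112 and 0.109 without the 8th bin. These correlations describe neighbouring stretches of 1 chromosome in 2 libraries.

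**Figure D2:**
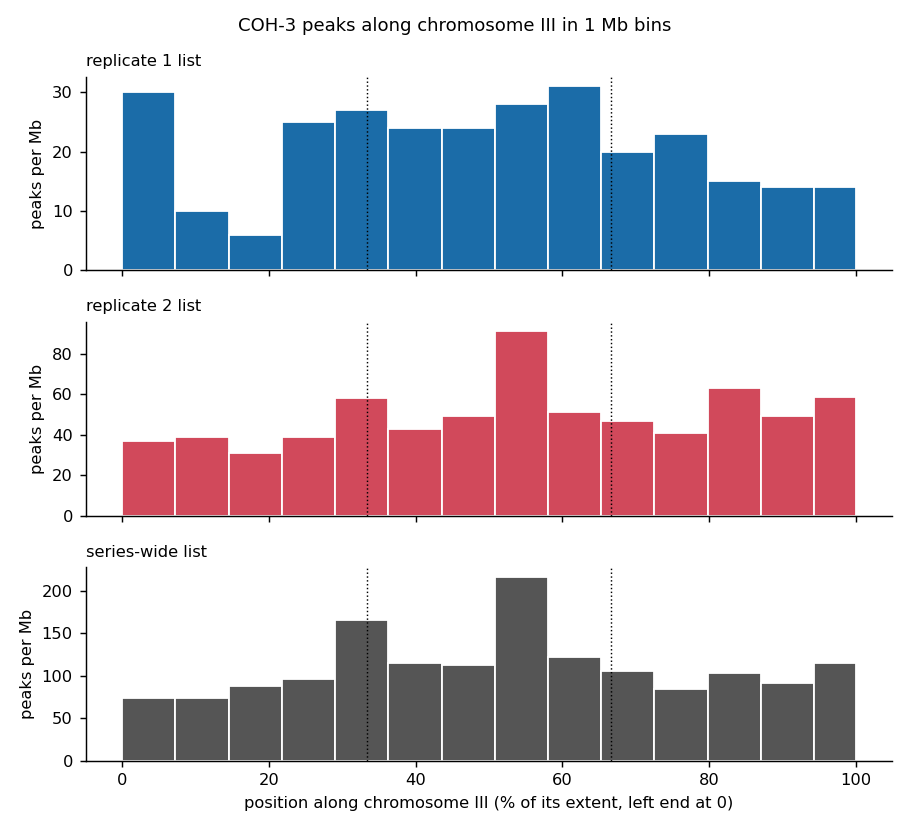
Peaks per Mb in 1 Mb bins along chromosome III for the replicate 1, replicate 2 and series-wide lists, each with its own vertical scale, with position as a percentage of the extent of III and dotted lines at the borders of the left, centre and right parts. Replicate 2 and the series-wide list are highest in the 8th bin, at 91 and 217 peaks per Mb, while replicate 1 is lowest in the second and the third bin, at 10 and 6. Replicate 2 is also lowest in the third bin, at 31.

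Divided into a left arm, a centre and a right arm of 4.595 Mb each, III had its largest share of peaks in the centre in each of the 3 lists. These are equal parts of the length, and their borders were not matched to the gene-dense middle and the arms described above. No part passed the adjusted test against its share of length in both libraries. In replicate 1 the left arm, centre and right arm held 94, 113 and 81 peaks, or 20.46, 24.59 and 17.63 per Mb. In replicate 2 they held 188, 255 and 241 peaks, or 40.92, 55.50 and 52.45 per Mb. The log2 ratio of the centre to the rest of III was 0.37 (95% exact interval 0.01 to 0.72) in replicate 1 and 0.25 (0.02 to 0.48) in replicate 2. Adjusted over the 6 exact binomial tests of 3 parts in both replicates, each gave p = 0.0779. The intervals are not adjusted for the 6 tests, and both lay just above equal density.

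The arms behaved differently in the 2 libraries. The left arm passed only in replicate 2, at a log2 ratio of -0.40 (-0.65 to -0.15), against -0.05 (-0.42 to 0.32) in replicate 1 (exact binomial tests, adjusted p = 0.00696 and 0.851). The right arm stood at -0.35 (-0.74 to 0.02) in replicate 1 and 0.12 (-0.11 to 0.35) in replicate 2, opposite in sign and past the threshold in neither (exact binomial tests, adjusted p = 0.0915 and 0.35). Whether the arms differed between the libraries was not tested.

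The series-wide list also had its highest density in the centre. It held 448 peaks in the left arm, 631 in the centre and 463 in the right arm, and the log2 ratio of the centre to the rest was 0.47 (0.32 to 0.62; exact binomial test, two-sided, adjusted over 3 tests, p = 1.45e-09). This list is not independent of the replicates. Its neighbouring peaks are not independent of each other either, so this p-value is too small. The quasi-Poisson model was not run for the 3 parts. The share of its peaks in the centre, 40.92%, compares with 35.03% to 38.52% on the other autosomes. The corresponding shares were 37.28% against 28.17% to 34.47% in replicate 2 and 39.24% against 31.72% to 45.0% in replicate 1, where III lay within the range of the others. These differences were not tested.

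The 8th megabase lies wholly in the centre. It was denser than the remaining centre in all 3 lists, so leaving it out had to lower the ratio, and only the size of the change is described. Without that bin, a comparison chosen after its values were seen, the series-wide centre fell to 115.2 peaks per Mb against 99.14 in the rest, a log2 ratio of 0.22 (0.05 to 0.39). The ratio was 0.31 (-0.08 to 0.69) in replicate 1 and -0.03 (-0.30 to 0.23) in replicate 2.

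**Figure D3:**
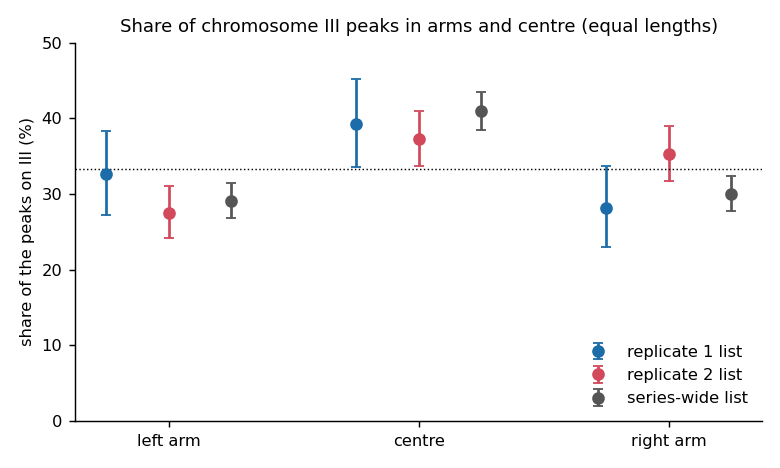
Share of the peaks on chromosome III that lie in its left arm, centre and right arm, in percent, for the replicate 1 (blue), replicate 2 (red) and series-wide (grey) lists, with 95% exact intervals and a dotted line at the share of length. The centre holds 39.24%, 37.28% and 40.92%, while the right arm is at 28.12% in replicate 1 and 35.23% in replicate 2.

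Peaks of III lay in clusters. The median gap between neighbouring series-wide peaks was 1954 bp and the mean gap 8468.5 bp, and 40.69% of the gaps were shorter than 1 kb. Such short gaps were fewer in the replicates, at 25.09% and 26.06%. The median gaps there were 15180 and 7757 bp and the mean gaps 47350 and 19335 bp. Spacing on the other chromosomes was not compared, so clustering is not shown to be particular to III. When peaks less than 1 kb apart were joined, the 1542 peaks formed 915 groups, of which 603 were single peaks. Groups of 5 or more numbered 36 and held 288 peaks, or 18.68% of all on III. The centre had 19 of these groups with 163 peaks, the left arm 7 with 58 and the right arm 10 with 67. Counted as groups, the densities were 62.68 per Mb on the left, 74.65 in the centre and 61.81 on the right, closer together than by single peaks.

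The densest stretches of 100 kb lay in the 5th, 7th and 8th megabase, and their support differed. The window from 7120001 to 7220000 held 78 series-wide peaks, 8 of replicate 1 and 33 of replicate 2, and 51.28% of its series-wide peaks were found in neither replicate. The window from 7400001 to 7500000 held 49, with 4 in replicate 1 and 16 in replicate 2, and there 8.16% were found in neither. It contains the largest group, 25 peaks from 7405667 to 7426537. Replicate 2 had 6 peaks in that stretch and replicate 1 had 2, and only 2 of the 25 overlapped both replicates. The other 3 windows began at 4150001, 4400001 and 6110001 and held 42, 36 and 33 peaks. The last of them was the best supplied in replicate 1, with 12 peaks against 16 in replicate 2. Median scores in the 5 windows ran from 4.09 to 5.91, below the median of 5.995 for all peaks of III.

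Long stretches of III carried no series-wide peak. The longest, 141.7 kb from 6663780 to 6805434, lies in the centre and contains the only empty window among the 138 consecutive windows of 100 kb. The next were 138.0 kb from 3505520 to 3643478, 134.1 kb from 12713998 to 12848083, 117.5 kb from 9111084 to 9228616 and 97.7 kb from 9228846 to 9326544. No replicate peak lay wholly inside any of these 5 stretches. The fourth and the fifth are separated by a single short peak, and replicate 2 had its longest empty stretch there, 282.2 kb from 9111089 to 9393265, in which replicate 1 had no peak either. The longest stretch without a replicate 1 peak was 502.5 kb from 2598645 to 3101100, which held 15 peaks of replicate 2.

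Support in the replicates was set out next, with an overlap of 1 bp counted as support. Of the 1542 peaks of III, 178 (11.54%; 95% exact interval 9.99 to 13.24) overlapped both replicates, against 13.9% of all nuclear series-wide peaks. Another 53 (3.44%; 2.59 to 4.47) overlapped only replicate 1, against 6.58%. Those overlapping only replicate 2 numbered 568 (36.84%; 34.42 to 39.30), against 33.4%, and the other 743 (48.18%; 45.66 to 50.71) overlapped neither, against 46.1%. On chromosome I 12.30% overlapped both and 3.36% only replicate 1. Differences between III and the whole list were not tested, and intervals cover counting error only.

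Supported peaks were the wide and high-scoring ones. This is a description only, because a wider peak has more room for a 1 bp overlap. The series-wide list and its scores are also not independent of the replicates. Peaks of III found in both replicates had a median width of 943 bp and a median score of 22.99, those found only in replicate 2 395 bp and 8.50, and those found in neither 207 bp and 4.22. In the highest score quartile of III 40.62% of the peaks were found in both replicates and 1.54% in neither, and in the lowest quartile 0.28% and 81.56%. Of the 105 peaks of 1200 bp or more, 69 (65.71%; 55.81 to 74.70) were found in both and the other 36 only in replicate 2. By position, 12.50% of the peaks in the left arm, 11.57% in the centre and 10.58% in the right arm were found in both. In the 8th megabase, 17 of 217 were found in both and 111 only in replicate 2.

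**Figure D4:**
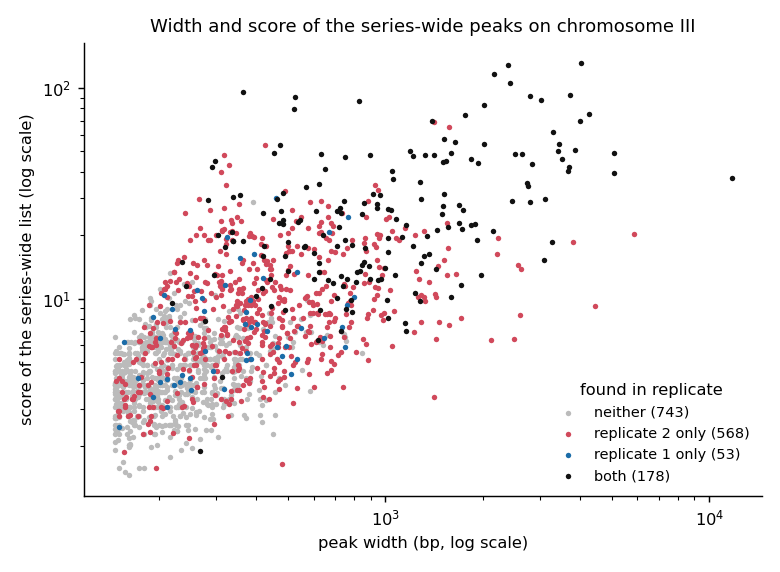
Width in bp and score of each of the 1542 series-wide peaks on chromosome III, both on log scales, coloured by the replicate lists that the peak overlaps (number of peaks in parentheses). The 178 peaks found in both replicates (black) lie toward the upper right, and the 743 found in neither (light grey) toward the lower left.

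Between the replicates themselves, 230 of 288 peaks of replicate 1 on III overlapped replicate 2, or 79.86% (95% exact interval 74.76 to 84.34), against 69.0% over all nuclear chromosomes and 71.45% (68.83 to 73.97) on the other 4 autosomes. Replicate 2 also covered more of III, at 4.19%, than of any other chromosome, where it covered 1.39% to 3.52%, and the difference in overlap was not tested. In the other direction 184 of 684 peaks of replicate 2 overlapped replicate 1, or 26.90% (23.61 to 30.39), against 31.3% over all nuclear chromosomes. Along III this share was 31.38% (24.83 to 38.54) on the left, 29.80% (24.26 to 35.83) in the centre and 20.33% (15.44 to 25.97) on the right, where replicate 1 had its fewest peaks. The bases covered in both libraries came to 134.2 kb in 234 regions, or 22.06% of the 608.6 kb covered in either. A series-wide peak overlapped 282 of the 288 replicate 1 peaks (97.92%) and 674 of the 684 replicate 2 peaks (98.54%). Over all nuclear chromosomes these shares were 96.63% and 97.09%.

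The 10 highest-scoring peaks of III were all found in both replicates. The first, with a score of 130.92, spanned 4006 bp from 3863708 to 3867713 in the left arm, and both replicates had a peak there at a score of 3100. That value recurs as a tie in 3 peaks of replicate 1 and 18 of replicate 2 on III. The peak ranked sixth lies close by, from 3894557 to 3898272, and replicate 1 divided it into 4 peaks. The second, with a score of 128.36, lies near the right end from 13446770 to 13449163. There replicate 2 had 1 peak of 2452 bp at 3100, and replicate 1 had 2 peaks with scores of 403.28 and 646.72. The third, which scored 116.42, ran from 10504892 to 10507052. The fourth, which scored 105.43, ran from 8334784 to 8337216 and was the sole member of the 10 in the centre.

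Narrow sites were also among the 10. The fifth spanned only 363 bp from 154198 to 154560, with a score of 95.21, and was nearly as narrow in the replicates, at 475 and 539 bp. The eighth spanned 526 bp from 13643292 to 13643817 and scored 90.4, and the tenth spanned 830 bp from 1618586 to 1619415 and scored 86.56. The seventh, from 10214316 to 10217102 with a score of 91.67, was called as 1 peak of similar extent in each library, with replicate scores of 2512.22 and 2144.51. The ninth, from 62122 to 65136 with a score of 87.41, lies near the left end. In all, 5 of the 10 were in the left arm, 4 in the right arm and 1 in the centre, whereas the centre had the most peaks.

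The widest peak of III, near 0.32 Mb, was also the widest of all 7495 nuclear peaks in the series-wide list. Chromosome I came close there, with a peak of 11714 bp. In replicate 2 the widest peaks of I (15306 bp) and V (13246 bp) were wider than that of III. In replicate 1 the widest peak of III was 5039 bp, against 11149 bp on I. The series-wide peak near 0.32 Mb spanned 11727 bp from 321653 to 333379, which is 2.0 times the next widest on III and 40.6 times the median of III. Its score of 37.56 ranked 56th on III. Replicate 2 called the same stretch as a single peak of 11739 bp from 321644 to 333382, at a score of 3100. Replicate 1 called it as 7 short peaks between 323658 and 332593, each 159 to 261 bp wide with scores of 51.62 to 110.12, which together covered 1514 bp or 12.91% of the stretch. The libraries thus both marked the site but differed in its form. In the surrounding 50 kb on either side of 0.32 Mb, both replicates also marked a short peak that the series-wide list gives from 349786 to 350027. Replicate 2 had 2 further peaks just left of the wide site, which replicate 1 lacked.

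**Figure D5:**
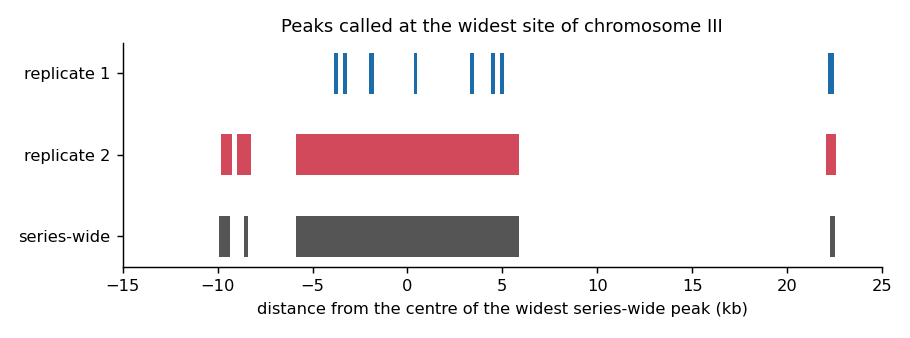
Peaks of the replicate 1 (blue), replicate 2 (red) and series-wide (grey) lists at the widest site of chromosome III, drawn to scale as distance in kb from the centre of the series-wide peak of 11727 bp. At the site itself replicate 2 and the series-wide list show a single block, and replicate 1 shows 7 short peaks that cover 12.91% of it. Shorter peaks beside the site are drawn as well.

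The other wide peaks fell into those that both libraries marked and those of replicate 2 alone. The peaks from 2077550 to 2082645 (5096 bp) and from 2496905 to 2501985 (5081 bp) were each called as a single wide peak in both replicates, with widths of 5039 and 4952 bp in replicate 1 and 5222 and 7016 bp in replicate 2. They lie in the bin of replicate 1 that held only 6 peaks. The peak from 5940245 to 5944232 (3988 bp) was of nearly equal width in the replicates, at 3941 and 4016 bp, with a score of 3100 in both replicates.

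In contrast, 3 of the 10 widest had no replicate 1 peak at all. A pair of them lies side by side near the right end, from 13588393 to 13592197 (3805 bp) and from 13592250 to 13598121 (5872 bp), with scores of 18.5 and 20.27. The remaining site, from 6566856 to 6571282 (4427 bp), ranked 461st by score among the peaks of III, and replicate 2 called a single peak of 7692 bp there. Whether input DNA was also high at these sites was not analysed here. The other 3 of the 10, at 4242, 4006 and 3849 bp, were found in both replicates.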

How the data were processed

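Per the submitters' processing notes, reads were aligned with BWA to ce10. The deposited lists give WormBase WS220 coordinates, per the file headers, and name MACS (replicates) or MACS v2 (series-wide) as caller. The authors gave every peak a score, whose scale the files leave unnamed. Calling thresholds, any use of input and how the series-wide list was assembled, all of which could change which peaks are listed, are not given in the sources used. Without read depth the precision of a list cannot be stated.

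Peaks were placed by midpoint. Densities were compared with exact binomial tests, two-sided, in each replicate with Benjamini-Hochberg adjustment, and called where both replicates passed 0.05 in the same direction. Neighbouring peaks are not independent, so these p-values are too small. Quasi-Poisson models used statsmodels 0.14.6. Intervals are 95% Clopper-Pearson intervals. Python 3.11.15, numpy 2.4.6, scipy 1.17.1, pandas 2.3.3 and matplotlib 3.10.9 were used, and the tests were tested on simulated data. The simulated peaks were independent, so those runs do not show how the binomial tests behave with unevenly spread peaks. Sites named are the 10 highest-scoring and 10 widest peaks, the 5 longest empty stretches, the 5 densest windows of 100 kb (steps of 10 kb) and the peaks within 50 kb of 0.32 Mb. The members and lists were chosen with earlier results of these data known. Sequence and genes of WS220 were not used here. There were 0 columns of other samples.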

Additional observations from a re-analysis of the deposited data

How the results depend on the processing

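Settings were changed singly. The calls of III over V (mean log2 ratio 0.71) and X (1.03) were lost with the better-scoring 50% of each list (0.51 and 0.78) and in the quasi-Poisson model (0.71 and 1.03), and that over X also after merging peaks closer than 500 bp (0.90). The series-wide list alone gave calls that the replicates together did not, for III over I (0.15), II (0.54) and IV (0.48) and for the centre (0.47), left arm (-0.29) and right arm (-0.22). The centre was also called with the first and last 0.5 Mb left out (0.39), and by covered bases stood at 0.40. With a single replicate the log2 ratio of III ranged from 0.15 to 0.22 against I, 0.066 to 0.51 against II, 0.14 to 0.42 against IV, 0.45 to 0.97 against V and 0.31 to 1.75 against X. The centre ranged from 0.25 to 0.37, the left arm from -0.40 to -0.045 and the right arm from -0.35 to 0.12, reversing its sign. Replicate 2 alone also gave calls for III over II and IV, the centre and the left arm, which lack the check of another library. The share of replicate 1 peaks found in replicate 2 was 66.3% for midpoints within 500 bp, 72.0% in the better-scoring 50%, 74.6% without peaks wider than 5 kb and 64.2% with equal numbers of replicate peaks. That of replicate 2 was 16.1% when 50% of the peak had to be covered and 37.7% with equal numbers, and under those settings 6.87% and 9.08% of the series-wide peaks of III overlapped both lists. The cause was not tested. Leaving out the densest 1 Mb bin, an alternative added after seeing the data, left every density call as it was. The other 69 values kept direction and call, or moved by less than the error. No paired analysis was possible because pairing needs values of 2 groups, and only peak lists of the ChIP group were used here.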
